A study of Mus musculus with 15 samples.

Results

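Gm17035 is a short noncoding RNA annotated on chromosome 15 on the strand opposite to Ndrg1, and its estimated level was among the highest in the mouse kidneys sequenced here. Its reads may not have been kept apart from those of Ndrg1, as set out below. Gm17035 was selected on its measured difference between ages: its level in FPKM (a level per transcript length and library size) was lower in 24-month than in 3-month kidneys in an earlier comparison of these libraries, so its own difference between 24 and 3 months is given below as a description with no test. The protein-coding gene on the other strand, Ndrg1, was added for its position, and its relatives Ndrg2, Ndrg3 and Ndrg4 for contrast. The members were all rows carrying these 5 gene names, 51 of the 129029 transcripts listed. Gm17035 had 1 row, Ndrg1 14, Ndrg2 12, Ndrg3 15 and Ndrg4 9.

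The kidneys came from 15 male C57BL/6 mice (C57BL/6J in the study's methods), 5 each at 3, 12 and 24 months of age, with 1 library per mouse and no genetic change or treatment named beyond urethane anaesthesia. Mice are named by age and by the replicate number of their label, 5 to 9, 17 to 21 and 31 to 35 from the youngest to the oldest group. Whole kidney was sequenced, so fewer cells of a type and less RNA per cell cannot be told apart in any of these levels. The aligned bases per library ranged from 5.03 to 6.13 Gb at 3 months, from 5.84 to 8.03 Gb at 12 months and from 6.07 to 7.33 Gb at 24 months.

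The Ndrg proteins form a small family with the fold of an alpha/beta hydrolase but without known enzyme activity. Ndrg1 was named for its repression by the transcription factor N-myc, encoded by Mycn. It is induced by low oxygen, by p53 and by several hormones, and its protein is phosphorylated by the kinases Sgk1 and Gsk3b. In people, loss of NDRG1 causes a demyelinating neuropathy of Schwann cells. Ndrg2 is known as an aldosterone-responsive gene of the distal nephron, Ndrg3 as an oxygen-regulated family member that binds lactate, and Ndrg4 as a gene mainly of brain and heart. Antisense transcripts such as Gm17035 are read from the DNA strand opposite to a gene, and assigning a read to one or the other needs its strand.

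Every exonic base of Gm17035 lay opposite an exon of Ndrg1. In the GENCODE annotation of GRCm38, Gm17035 (ENSMUSG00000091479, transcript ENSMUST00000170557, type antisense) occupied chr15:66929607-66931107 on the + strand, and Ndrg1 (ENSMUSG00000005125) occupied chr15:66929318-66969640 on the − strand. Gm17035 had 2 exons of 90 and 329 bases, 419 in all, separated by an intron of 1082 bases. Both exons and the intron fell inside exon 16 of the main Ndrg1 transcript ENSMUST00000005256, the last exon, which is 1791 bases long. Of the 419 bases, 238 were opposite coding sequence, 3 opposite the stop codon and 178 opposite the 3′ UTR. All 419 bases equalled the reverse complement of the Ndrg1 transcript, as 2 annotations of the same DNA must. The intron began with GC and ended with AG on the + strand, and read on the Ndrg1 strand the same intron would begin with CT and end with GC.

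The splice sites and the end of the Ndrg1 reading frame are shown because they are the places where the annotations of both strands differ. Capitals mark the first or last bases of the intron, the bases after the exon junction, or the stop codon and its reverse complement. All were read from the GENCODE transcripts of GRCm38.
First splice site of Gm17035, chr15:66929685-66929710, + strand: catgggcattagGCtggcattgctta
Last splice site of Gm17035, chr15:66930765-66930790, + strand: aaaagcagctttAGattaataccgca
Joined exons of Gm17035, + strand: catgggcattagATTAATACCGCA
End of the Ndrg1 reading frame, chr15:66930855-66930881, − strand: gaggtgtcctgcTAAgcaatctgtgca
Gm17035 over the same bases, + strand: tgcacagattgcTTAgcaggacacctc
Outside the joined exons, no base of Gm17035 tells it from Ndrg1 once strand is set aside. The labels name a stranded library kit, and the study's methods describe marking the second DNA strand with dUTP. Whether strand entered the authors' estimates was not given in the sources used here. Reads of Gm17035 and of the last Ndrg1 exon may therefore not have been kept apart.

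**Figure D1:**
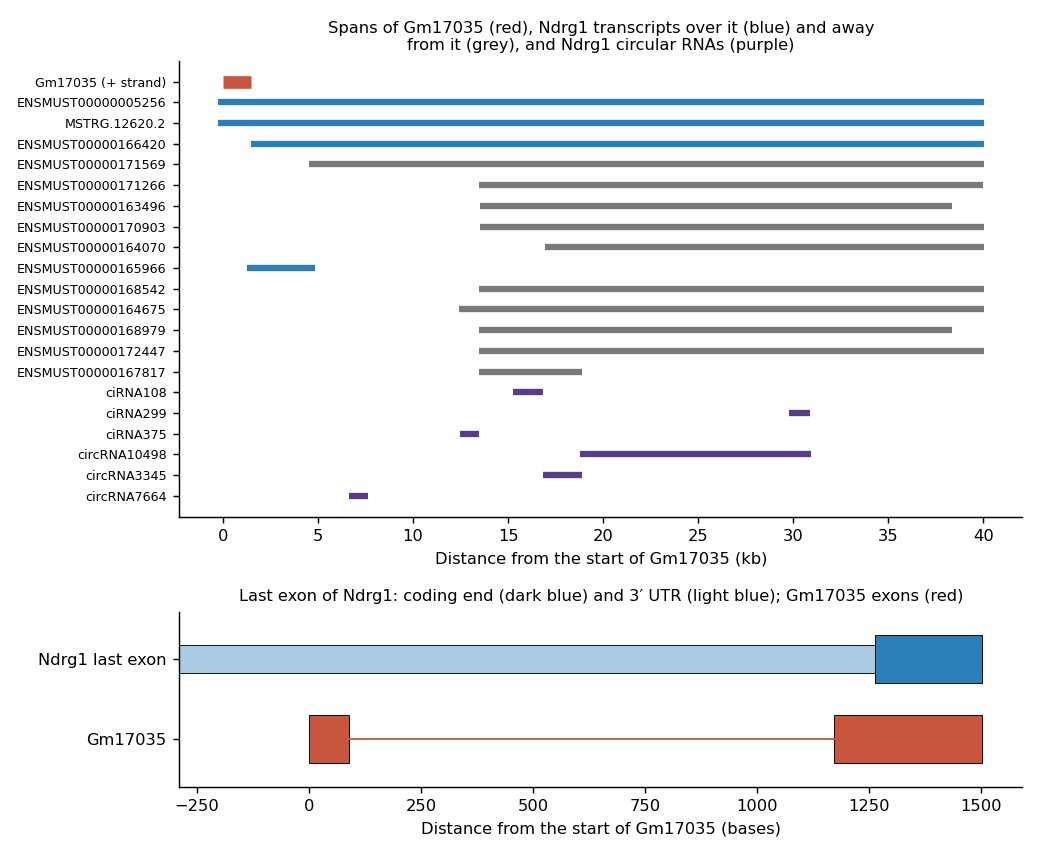
Top: spans of Gm17035, of the 14 Ndrg1 transcripts in order of mean FPKM and of the 6 circular RNAs of Ndrg1, as distance in kb from the start of Gm17035. Bottom: the last Ndrg1 exon and the 2 exons of Gm17035 in bases. Of the 14 Ndrg1 transcripts 4 reach the exons of Gm17035, and 10 transcripts and all 6 circles lie away from it.

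Gm17035 was highest at 3 months and lower, with a wide spread, at the later ages. At 3 months the 5 mice held 507, 546, 581, 719 and 793 FPKM. At 12 months the values were 0.0618, 281, 465, 526 and 665 FPKM. At 24 months they were 210.3, 230.4, 267, 268 and 470.0 FPKM. The groups of 3 and 24 months did not overlap, whereas the 12-month mice ran from far below the oldest to within the youngest. The near absence at 12 months was replicate 18 alone, and the highest 24-month value, in replicate 35, stood far from the 4 others. Averaged over 15 mice, Gm17035 ranked 36 of 33142 genes by FPKM and Ndrg1 ranked 18. On the log2(FPKM + 1) scale the difference between 24 and 3 months was −1.16, and it lay between −1.35 and −1.06 when any of these 10 mice was left out.

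The summed level of Ndrg1 fell with age and did not overlap between any 2 ages. Its 10 transcripts that share no base with Gm17035, given below, overlapped between 12 and 24 months. Summed over all 14 Ndrg1 transcripts, the level at 3 months was 819.6, 875, 920.2, 1042 and 1230.2 FPKM. At 12 months it was 493, 549.6, 636, 649 and 669 FPKM. At 24 months it was 222, 298, 315, 383 and 401 FPKM. The mean went from 978 ± 163 (SD, n = 5) to 599 ± 75.01 and then 324 ± 71.8 FPKM, so the old kidneys held 0.332 times the young level. No mouse of a later age reached the lowest value of an earlier one.

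The fall of Ndrg1 between 3 and 24 months passed both tests. Its log2 difference was −1.60 with a standard error of 0.217, and the adjusted p over all 31849 gene sums tested with limma was 0.0200. Gm17035 was chosen on this contrast, and its reads may not have been kept apart from those of the last Ndrg1 exon. Tests of the Ndrg1 sum between 3 and 24 months may therefore not be independent of that choice. Of all gene sums 0.86% had an adjusted p below 0.05 in this comparison, 14.1% an unadjusted p below 0.05, and 4.41% did not overlap between the ages. Between 3 and 12 months the difference was −0.70, with an unadjusted limma p of 0.00886 and an adjusted p of 0.212. From 12 to 24 months it was −0.91, with an unadjusted limma p of 0.000700 and an adjusted p of 0.604. The share of gene sums with an unadjusted p below 0.05 was 13.4% and 6.38% in these comparisons, and those without overlap were 3.72% and 1.02%. The exact two-sided permutation test gave p = 0.00794 in each of the 3 comparisons, the smallest that 252 assignments of 10 mice allow, and 0.0238 after adjustment over 12 tests. The comparisons share mice, so they are not independent of each other, and only the first passed the limma adjustment over all gene sums.

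**Figure D2:**
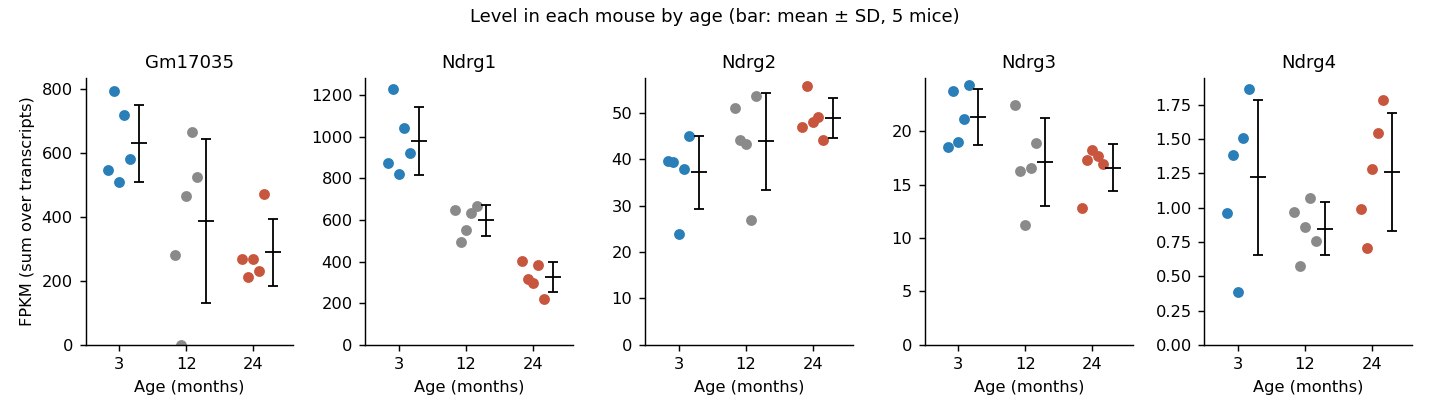
FPKM of each mouse, summed over the transcripts of a gene, for Gm17035 and the 4 Ndrg genes at 3, 12 and 24 months. Points are mice, and bars are the mean ± SD of 5 mice. The Ndrg1 sum steps down at each age without overlap, Gm17035 has 1 mouse near 0 at 12 months, and the axes differ between panels.

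The Ndrg1 transcripts moved in the same direction from 3 to 24 months, though not to the same extent. All 14 Ndrg1 transcripts had a log2 difference below 0 in that comparison, with a median of −0.95, against a median of 0.01 over the 124719 transcripts tested. Of the 14 transcripts 7 fell at an unadjusted p below 0.05 and a log2 difference beyond 1, the call for transcripts, and none rose, while 0.795% of all transcripts were called and 0.33% were called lower. Only ENSMUST00000170903 was called with the adjusted p (0.0299). Transcripts of 1 gene share reads, so the 7 calls are not 7 independent observations.

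The main coding transcript ENSMUST00000005256, with 2886 bases in 16 exons, was the most abundant on average, with 71.2% to 80.3% of Ndrg1 FPKM at 3 months, 37.4% to 79.0% at 12 months and 41.0% to 77.4% at 24 months. At 3 months it stood at 599, 646, 656, 837 and 920.0 FPKM. At 12 months it stood at 184, 302, 361, 473 and 528 FPKM. At 24 months it stood at 91.1, 174, 210.2, 229 and 244 FPKM. All the older mice lay below all the 3-month mice, as in 2.13% and 1.85% of the transcripts tested for 24 and 12 against 3 months in either direction, and the 2 older ages overlapped. Its log2 difference was −2.002 ± 0.303 (SE) from 3 to 24 months and −1.05 ± 0.312 from 3 to 12 months. Both were calls on the unadjusted limma p, and the limma adjusted p values were 0.115 and 0.502.

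The assembled transcript MSTRG.12620.2 followed another course. Its span covered both exons of Gm17035, and the positions of its 15 exons were not analysed here. It held 33.01 to 75.6 FPKM at 3 months, 44.1 to 217 FPKM at 12 months and 10.4 to 120.4 FPKM at 24 months. The 3 ages overlapped. The difference from 3 to 12 months was 0.93 (limma adjusted p = 0.694). That from 12 to 24 months was −1.69 (limma adjusted p = 0.838, unadjusted p = 0.0489). It made up 3.77% to 8.22% of Ndrg1 FPKM in young mice and 3.31% to 44.1% in the others. The highest share was that of 12-month replicate 18, in which Gm17035 was near 0 and ENSMUST00000005256 lowest of its age.

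Several of the shorter transcripts called from 3 to 24 months start in the 5′ part of the gene and stop well before Gm17035. So do ENSMUST00000168979, ENSMUST00000168542 and ENSMUST00000164675, which were not called. ENSMUST00000170903 (protein coding, 8 exons) held 11.8 to 18.2 FPKM at 3 months, 3.53 to 6.79 FPKM at 12 months and 2.25 to 4.92 FPKM at 24 months. It did not overlap between the youngest mice and either older group, and it fell by 1.75 on the log2 scale from 3 to 24 months. ENSMUST00000163496 (protein coding) fell by 1.43, ENSMUST00000171266 (nonsense-mediated decay) by 1.16 and ENSMUST00000164070 (protein coding) by 1.08. The other called transcripts were ENSMUST00000165966 (retained intron), which fell by 1.52, and ENSMUST00000166420 (protein coding), which fell by 1.07. The log2 difference was −0.83 for ENSMUST00000171569 (retained intron), −0.63 for ENSMUST00000168979, −0.59 for ENSMUST00000168542 and −0.19 for ENSMUST00000164675, none of them called. The remaining 2 transcripts had means under 1 FPKM and were not called. Leaving out each mouse in turn gave 5 to 8 calls for 24 against 3 months. ENSMUST00000166420 dropped to −0.90 to −0.98 and lost its call without 3-month replicate 9 or 24-month replicate 32 or 33, ENSMUST00000164070 without 24-month replicate 33 (−0.97) and ENSMUST00000171266 without 3-month replicate 6 (−0.9995), while ENSMUST00000171569 was called without 24-month replicate 31 (−1.10).

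From 3 to 12 months 5 Ndrg1 transcripts fell by the same call and none rose, against 0.784% of all transcripts called and 0.317% called lower. Those 5 were ENSMUST00000005256, ENSMUST00000165966, ENSMUST00000171266, ENSMUST00000170903 and ENSMUST00000163496, and 3 transcripts were called when 3-month replicate 6 or 12-month replicate 18 was left out. From 12 to 24 months MSTRG.12620.2 was the 1 call, against 0.402% of all transcripts and 0.216% called lower, and it was lost on leaving out any of 3 mice (12-month replicates 17 and 19 and 24-month replicate 35), while 2 transcripts were called without 24-month replicate 34.

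**Figure D3:**
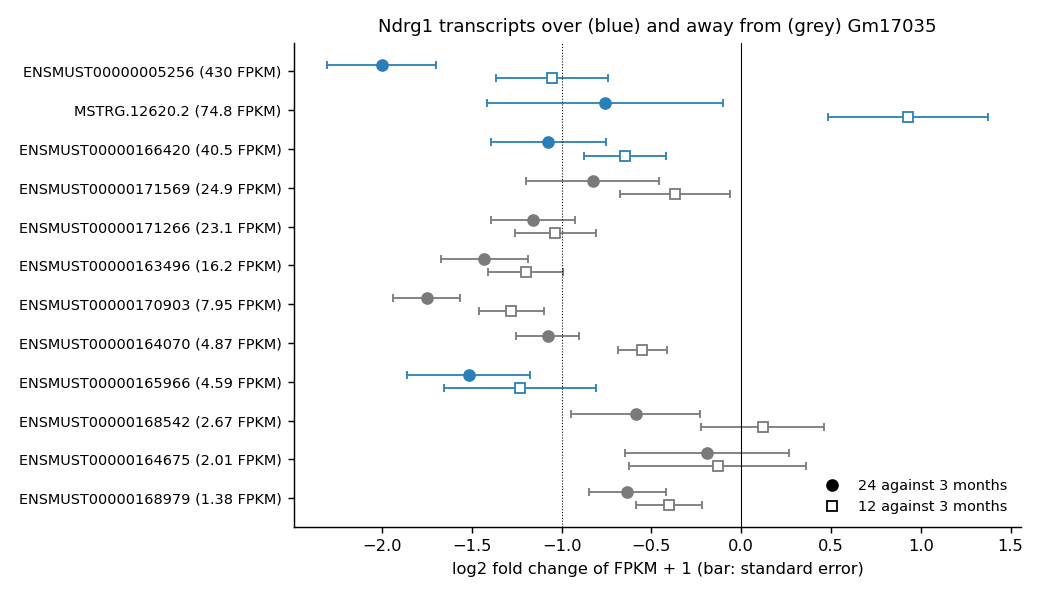
log2 difference of FPKM + 1 with its standard error for the 12 Ndrg1 transcripts with a mean of at least 1 FPKM, for 24 against 3 months (filled) and 12 against 3 months (open). Blue transcripts span exons of Gm17035 and grey ones do not. All filled points lie below 0, and MSTRG.12620.2 stands at 0.93 for 12 against 3 months.

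The fall of Ndrg1 was also present in the transcripts that share no base with Gm17035. The 10 such transcripts summed to 98.2, 106, 114, 127 and 180.2 FPKM at 3 months. At 12 months they summed to 57.2, 60.1, 64.0, 80.7 and 88.3 FPKM, and at 24 months to 31.3, 44.1, 60.3, 63.2 and 77.4 FPKM. Both older groups lay below the youngest without overlap and overlapped each other. The log2 difference was −1.19 from 3 to 24 months and −0.81 from 3 to 12 months, each with an exact permutation p of 0.00794 and 0.00952 after adjustment over 6 tests. From 12 to 24 months it was −0.38 (exact permutation p = 0.167). The 4 transcripts over Gm17035 differed by −1.69, −0.68 and −1.01 in the same order of comparisons, each with an exact permutation p of 0.00794. They may share reads with Gm17035, which was chosen on its difference between 3 and 24 months. The division into 10 and 4 transcripts was made after the data were seen.

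In the young kidneys the coverage of Gm17035 and of the main Ndrg1 transcript kept an almost fixed ratio, which varied more between the older mice. The mean read coverage of Gm17035 divided by that of ENSMUST00000005256 was 0.845, 0.848, 0.859, 0.862 and 0.887 at 3 months. At 12 months the ratio was 0.000336, 0.779, 0.995, 1.41 and 1.54. At 24 months it was 0.862, 1.10, 1.17, 1.54 and 5.16. The SD over 5 mice was 0.0165 at 3 months, 0.610 at 12 months and 1.80 at 24 months. The lowest ratio came from 12-month replicate 18 and the highest from 24-month replicate 35, in which Gm17035 was the highest of its age and Ndrg1 the lowest. In aligned bases, Gm17035 took 9.36% to 9.86% of the bases assigned to both genes at 3 months, and 0.00210% to 14.6% at 12 months. At 24 months it took 9.14%, 9.88%, 9.96%, 12.7% and 31.01%, the highest in replicate 35. The coverage ratio rests on ENSMUST00000005256 alone, and the share of bases on all Ndrg1 transcripts. In 24-month replicate 31 the ratio was 1.54 and the share 9.96%.

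Gm17035 and Ndrg1 were both high in young mice, and Gm17035 was chosen for its difference between ages, so their relation over all 15 mice is given as a description with no test. Over log2(FPKM + 1), Pearson's r was 0.27 and Spearman's rho 0.78. Without the 2 mice farthest from the median of Gm17035, 12-month replicate 18 and 24-month replicate 32, r was 0.68 and rho 0.80. Without replicate 18 alone r was 0.72 and rho 0.80, so that r turned on this mouse and rho did not. After subtracting the mean of each age, r was 0.30 (permutation p = 0.156, adjusted over 4 genes 0.311) and rho 0.28 (permutation p = 0.271, adjusted 0.542). The centred r became −0.20 without replicate 18 (permutation p = 0.539) and 0.48 without 24-month replicate 35 (permutation p = 0.0173).

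**Figure D4:**
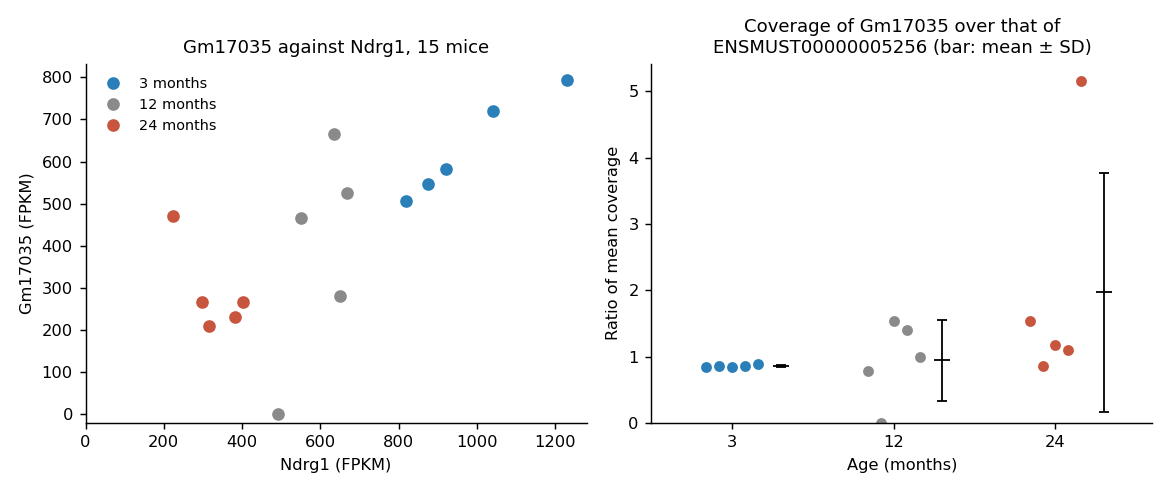
Left: Gm17035 against Ndrg1 in FPKM, 1 point per mouse, by age. Right: mean coverage of Gm17035 divided by that of the main Ndrg1 transcript in each mouse, with the mean ± SD of 5 mice. The ratio spans 0.845 to 0.887 at 3 months and scatters from 0.000336 to 5.16 at the later ages.

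Circular RNAs of Ndrg1 were lower in the older kidneys as well. Circular RNAs are joined head to tail from exons, or come from introns that stay as loops. Of the 11929 listed, 6 had Ndrg1 as host, 3 exonic and 3 intronic, and none came from Gm17035 or the other Ndrg genes. None of the 6 touched the last Ndrg1 exon, and the nearest to Gm17035, circRNA7664, lay at chr15:66936253-66937245. How these estimated counts were made was not given in the sources used here, and they may hold reads of linear Ndrg1.

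The most abundant was circRNA10498 (3 exons, chr15:66948379-66960552), which ranked 20 among all circular RNAs. In CPM of the circular counts it held 2318, 2450.0, 2934, 3377 and 4125 at 3 months. It held 1057, 1417, 1537, 1583 and 1704 at 12 months and 878, 1157, 1359, 1413 and 1501 at 24 months. The youngest mice stood above all others, and the 2 older ages overlapped. Its log2 difference from 3 to 24 months was −1.34 ± 0.177 (edgeR quasi-likelihood test, adjusted p = 0.000974). The circles circRNA3345 and circRNA7664 differed by −1.55 and −1.36 (edgeR adjusted p = 0.000309 for both).

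The intronic circles ciRNA108, ciRNA299 and ciRNA375 differed by −1.60, −1.62 and −1.75 from 3 to 24 months, with edgeR adjusted p of 0.00373, 0.00186 and 0.00702. All 6 were thus called lower, against 13.3% of all circular RNAs called and 6.61% called lower, and none of the 6 overlapped between these ages, against 11.2% of all. They come from 1 gene, and the span of ciRNA299 lies inside that of circRNA10498, so the 6 calls are not 6 independent observations. From 3 to 12 months all 6 were lower too, by 0.70 to 1.599 on the log2 scale, with edgeR adjusted p from 0.00714 to 0.0281, against a background of 6.63% called and 3.2% called lower. In that comparison ciRNA299 lost its call without 3-month replicate 8 or 12-month replicate 17 or 19 (edgeR adjusted p from 0.0562 to 0.0591), and ciRNA108 without 12-month replicate 18 or 21 (edgeR adjusted p of 0.0520 and 0.0593). From 12 to 24 months circRNA7664 alone was called (−0.66, edgeR adjusted p = 0.0432, against 0.738% of all), and that call was lost on leaving out any of 7 mice (12-month replicates 17, 19 and 20 and 24-month replicates 31, 32, 33 and 34). With DESeq2 both circRNA7664 and circRNA3345 were called (adjusted p = 0.000582 and 0.00155), and edgeR called circRNA3345 too without 12-month replicate 18 (adjusted p = 0.0372) or 24-month replicate 35 (adjusted p = 0.0242). The last 2 comparisons of circles were added after the data were seen. In 12-month replicate 18 each of the 6 circles was the lowest of its age.

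**Figure D5:**
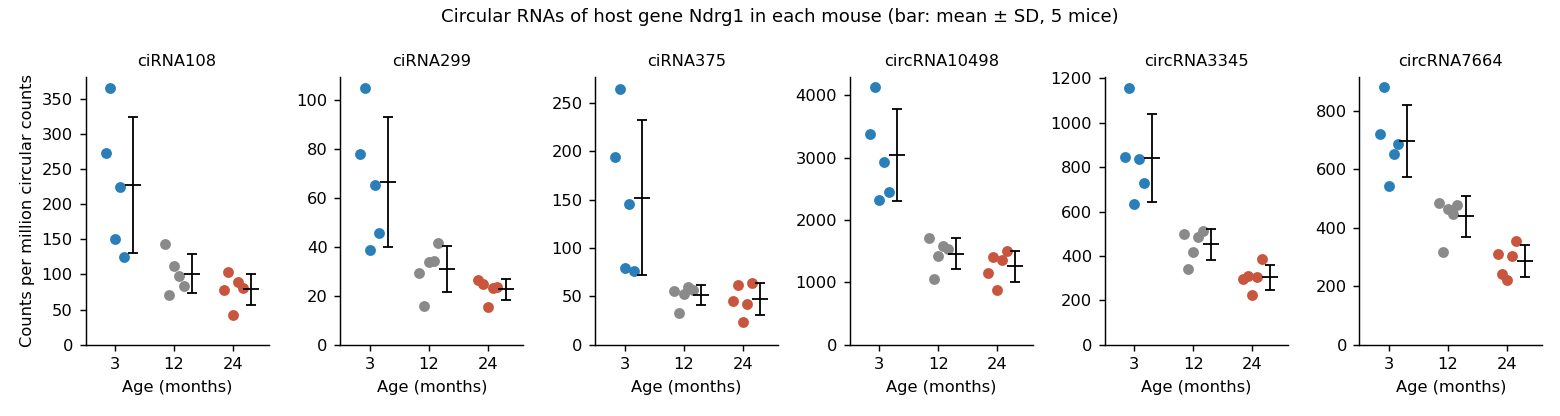
Level in CPM of the circular counts for the 6 circular RNAs of Ndrg1 in each mouse at 3, 12 and 24 months. Points are mice, and bars are the mean ± SD of 5 mice. For each circle the 24-month mice lie below the 3-month mice, and the 12- and 24-month mice overlap.

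The other Ndrg genes showed smaller differences between 24 and 3 months than Ndrg1, upward for Ndrg2 and downward for Ndrg3. Ndrg2 held 23.9, 37.9, 39.3, 39.5 and 45.1 FPKM at 3 months. It held 27.0, 43.2, 44.2, 51.1 and 53.6 FPKM at 12 months and 44.1, 47.0, 48.1, 49.0 and 55.8 FPKM at 24 months. The 3- and 24-month mice overlapped in their extremes. From 3 to 24 months it was 0.41 higher on the log2 scale (unadjusted limma p = 0.0240, limma adjusted p = 0.262, exact permutation p = 0.0159, or 0.0381 over 12 tests). The limma p rose to 0.0562 without 24-month replicate 32.

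Ndrg3 held 18.5, 19.003, 21.1, 23.8 and 24.3 FPKM at 3 months. It held 11.3, 16.3, 16.5, 18.9 and 22.5 FPKM at 12 months and 12.8, 16.9, 17.3, 17.6 and 18.3 FPKM at 24 months. The oldest mice lay just below the youngest without overlap, and the 12-month mice spread across both. From 3 to 24 months it was 0.35 lower on the log2 scale (unadjusted limma p = 0.0128, adjusted p = 0.200, exact permutation p = 0.00794). Ndrg4 was low at all ages, between 0.384 and 1.87 FPKM, and its log2 difference from 3 to 24 months was 0.05 (limma adjusted p = 0.936).

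The 36 transcripts of Ndrg2, Ndrg3 and Ndrg4 were all tested for 24 against 3 and 24 against 12 months. For 12 against 3 months 10 of Ndrg2, 13 of Ndrg3 and 9 of Ndrg4 were tested. None of the 36 was called in any of the 3 comparisons. At an unadjusted limma p below 0.05 alone, 1 of them passed in each comparison, ENSMUST00000080666 of Ndrg4 for 24 against 3 and 24 against 12 months and ENSMUST00000111632 of Ndrg2 for 12 against 3 months. The share of all transcripts passing that limit was 7.9% for 24 against 3, 7.46% for 12 against 3 and 4.47% for 24 against 12 months. Most of the Ndrg2 rows were assembled, and 8 of its 12 rows had at least 1 mouse at 0. Its main transcript ENSMUST00000004673, which differed by −0.05 from 3 to 24 months, held 5.56 to 35.8 FPKM at 3 months, 10.2 to 34.4 at 12 months and 6.36 to 21.2 at 24 months, which all overlapped. Its other annotated transcript ENSMUST00000111632 differed by 0.64 from 3 to 24 months. The 8 assembled Ndrg2 rows with a mean of at least 1 FPKM were uneven between mice. MSTRG.11243.5, MSTRG.11243.7 and MSTRG.11243.10 were at 0 in 11, 13 and 13 of 15 mice, and their highest values were 21.7, 9.71 and 25.4 FPKM. Their log2 differences from 3 to 24 months were 1.10, 1.33 and −0.94. MSTRG.11243.1, MSTRG.11243.2, MSTRG.11243.3, MSTRG.11243.4 and MSTRG.11243.12 differed by 0.66, −0.07, 0.83, 0.34 and 0.21 on the log2 scale from 3 to 24 months. In Ndrg3, ENSMUST00000072298 was the largest with a mean of 5.37 FPKM over 15 mice, and it differed by −0.04. The other Ndrg3 transcripts of at least 1 FPKM, ENSMUST00000069600, ENSMUST00000109558, MSTRG.21287.1, MSTRG.21287.2 and MSTRG.21287.4, differed by −0.04, 0.26, −0.56, −0.83 and −0.27. The 3 ages overlapped in each of these 16 transcripts of Ndrg2 and Ndrg3. With each age centred, the correlation of Gm17035 with Ndrg2, Ndrg3 and Ndrg4 over 15 mice had a Pearson's r of −0.11, 0.02 and 0.31 (adjusted permutation p = 0.850, 0.910 and 0.0210) and a Spearman's rho of −0.02, 0.19 and 0.44 (adjusted permutation p = 0.956, 0.774 and 0.178). Without 12-month replicate 18 the centred r with Ndrg4 was 0.45 (permutation p = 0.0650).

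A list of 20 genes known to act on Ndrg genes or their proteins was taken. From 3 to 24 months 2 rose and 1 fell at an unadjusted limma p below 0.05. Among all gene sums 10.7% were higher, 3.4% lower and 14.1% either, so the list was near the background. None of the 20 had an adjusted p below 0.05. The list's median log2 difference was 0.04, beside 0.02 over all gene sums. Nr3c2, which encodes the mineralocorticoid receptor, rose by 0.55 (from 2.38–4.003 to 4.56–6.87 FPKM, adjusted p = 0.108), and Trp53, which encodes p53, rose by 0.30 (adjusted p = 0.301). Egr1, an early-response transcription factor, fell by 1.98 on the log2 scale (adjusted p = 0.253), though it ran from 6.05 to 32.6 FPKM at 3 months and from 0.741 to 23.9 FPKM at 24 months. The kinase gene Sgk1 held 52.1 to 109 FPKM at 3 months, 18.96 to 60.8 at 12 months and 44.2 to 116 at 24 months, with differences from the youngest of −1.16 at 12 months (limma adjusted p = 0.158) and −0.26 at 24 months (adjusted p = 0.688). Hif1a, the oxygen-regulated subunit of the hypoxia-inducible factor, differed by 0.08 (limma adjusted p = 0.826), and Mycn, at no more than 0.868 FPKM in any mouse, by −0.08 (adjusted p = 0.817).

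Targets of low oxygen and of corticosteroids, both known to change Ndrg genes, were taken as background lists. Of 22 hypoxia targets 4 fell and none rose at an unadjusted limma p below 0.05, against 3.4% lower and 10.7% higher among all gene sums, with a median of −0.13 and no adjusted p below 0.05, and 2 passed when 24-month replicate 33 or 34 was left out. The 4 were P4ha1 and P4ha2, subunits of collagen prolyl hydroxylase (−0.45 and −0.50), the glucose transporter Slc2a1 (−0.46) and the carbonic anhydrase Car12 (−0.29). Vegfa, the vascular growth factor, differed by −0.11 (limma adjusted p = 0.678). Of 15 corticosteroid-regulated genes 4 fell and 1 rose by the same call and against the same 3.4% and 10.7%, with a median of −0.26. The transcription factor Zbtb16 fell by 1.47, from 13.9–30.2 to 2.66–11.5 FPKM without overlap (limma adjusted p = 0.0921). Pdk4, a kinase that inhibits pyruvate dehydrogenase, fell by 1.20, the glucocorticoid receptor co-chaperone Fkbp5 by 1.12 and Hsd11b2, which inactivates glucocorticoids in mineralocorticoid target cells, by 0.996. The potassium channel Kcnj1 rose by 0.52. The differences of the 5 genes had adjusted p from 0.0921 to 0.320.

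Besides Ndrg1, the only other gene within 100 kb of Gm17035 past an unadjusted p below 0.05 was the noncoding Gm2895. Gm2895 lay 38216 bases from Gm17035 on the + strand, and whether it overlaps Ndrg1 was not analysed here. It fell from a mean of 1.53 ± 0.451 to 0.490 ± 0.132 FPKM (SD, n = 5) between 3 and 24 months without overlap (log2 difference −0.75, limma adjusted p = 0.0483). Among all gene sums 14.1% passed the unadjusted limit, 0.86% the adjusted one, and 4.41% did not overlap between these ages. Wisp1, a secreted matricellular protein gene 6406 bases away, differed by −0.59 (limma adjusted p = 0.530). Tg and Sla, at the far edge of the window, differed by 0.43 and 0.29 with limma adjusted p of 0.670 and 0.554.

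Among 30189 transcripts with a mean of at least 1 FPKM, those most like Gm17035 over 15 mice were fixed by 12-month replicate 18. Transcripts of Emc3, Gm29084, Magi2, RP23-228B2.3 and Ykt6 had Pearson's r from 0.90 to 0.96, and each was lowest in that mouse. The most opposite, assembled transcripts of Uqcr10, Atp11a and Glyr1 (r of −0.96, −0.96 and −0.97), were near 0 in all mice but that one. Without it the nearest were transcripts of Scd2, Rbsn, Slc5a2, Tbc1d17 and Ece1 (r of 0.85 to 0.89 over 14 mice) and the most opposite those of Tomm6, B3gat2 and Alms1-ps2 (r of −0.92, −0.92 and −0.90). None of these nearest or most opposite transcripts was from the same locus. The Ndrg1 transcripts of this abundance had r from −0.40 to 0.46 over 15 mice and from 0.07 to 0.80 without that mouse. Without it they ranked from 26 (ENSMUST00000170903) to 11908 (ENSMUST00000164675) of 30189, and the main transcript ENSMUST00000005256 ranked 209. Ages were not centred in this ranking.

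The tissue carried the markers of kidney at every age. Marker genes are called higher or lower for 24 against 3 months at an unadjusted limma p below 0.05, which 10.7% and 3.4% of all gene sums were. The summed level of 5 proximal tubule genes ran from 1594 to 1961 FPKM at 3 months and from 1425 to 1891 FPKM at 24 months, with Slc5a2 (−0.56) the 1 of 5 lower. Of 3 collecting duct principal cell genes Aqp2 was lower (−0.92), with sums of 39.3 to 146 FPKM at 3 months and 30.1 to 63.8 FPKM at 24 months. Of 3 intercalated cell genes Slc26a4 was lower (−0.54), with sums of 19.04 to 28.1 and 16.2 to 21.02 FPKM. Of 3 stromal genes the renin gene Ren1 was lower (−1.75) and Pdgfrb higher (0.47). Of 4 leukocyte genes 3 were higher, with sums of 2.66 to 8.63 and 6.44 to 11.3 FPKM. Of 3 endothelial genes 1 was higher, and none of the thick ascending limb, distal convoluted tubule, podocyte, nerve and Schwann cell, and fat genes passed the test. Of 3 adrenal genes Star was higher (0.52), with sums of 1.05 to 1.75 and 1.88 to 3.25 FPKM, and the defining Cyp11b1 was at 0 in all 3-month mice. The log2 differences of the 3 adrenal genes had a median of 0.016 and a minimum of 0.0031. Muscle and heart genes stayed at or below 0.271 FPKM in sum. None of these marker genes had a limma adjusted p below 0.05, and their part in the fall of Ndrg1 was not tested.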

How the data were processed

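RNA of 15 mouse kidneys was sequenced. The labels name ribosomal RNA depletion and a stranded library kit, while the study's methods name poly(A) selection. The authors mapped reads to the mouse genome, merged the StringTie assemblies of the kidneys, and deposited FPKM and mean coverage for each transcript, named by Ensembl or assembly identifiers with GRCm38 positions. Coverage divided by FPKM is fixed within a library and gave its aligned bases. The circular RNA estimated counts deposited by the authors, with circular FPKM beside them that was not used, were mostly not whole numbers and were rounded here. Their making was not given in the sources used here. No counting interval was computed for FPKM, since low values were not whole reads, and precision rests on the spread between 5 mice. Titles begin with 3M at every age, so ages came from the age labels, which the table's columns share. The study's methods say that young and old mice were killed on 1 day and do not mention the 12-month mice there, and no sequencing batch was named.

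The members and gene lists were chosen with earlier results of these data known. Transcripts and gene sums above 0 in at least 1 compared mouse were tested with limma 3.58.1 (trend = TRUE, R 4.3.3) on log2(FPKM + 1), which understates the change of low transcripts, using only mice of the 2 ages compared. Transcripts were called at an unadjusted p below 0.05 and an absolute log2 difference above 1, gene sums at an unadjusted p below 0.05, and p was adjusted by Benjamini-Hochberg over all features. Circular RNAs above 0 in at least 5 of 10 mice were tested with edgeR 4.0.16 (TMM, quasi-likelihood). Exact permutation tests used all 252 assignments, and correlations 100000 permutations, within ages when centred. Fits were tested on simulated data. Transcripts with a mean of at least 1 FPKM or a call were named singly, as were genes within 100 kb, the 5 most similar and 3 most opposite transcripts, and up to 5 called genes per list plus Sgk1, Hif1a, Mycn, Nr3c2 and Vegfa. Alternatives were a pseudocount of 0.1, a mean of at least 1 FPKM, TPM, median-of-ratios scaling, all 15 mice in 1 fit, a robust prior, an F test with a library covariate, adjusted p, DESeq2 1.42.0 and no count filter for circles, and each mouse left out.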

Additional observations from a re-analysis of the deposited data

Results flagged for a closer look

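In 20 of 117 groups of 5 mice, over the named members and circular RNAs, 1 mouse stood apart from its age by more than Dixon's critical value. That value is set to pass about 1 in 20 groups of normally distributed values. Many values here were at or near 0, so the 20 groups cannot be read as an excess over chance. Gm17035 in 12-month replicate 18, at 0.0618 FPKM, was not among them. Transcripts of 1 gene share reads, so these groups are not independent. At 24 months Gm17035 held 470.0 FPKM in replicate 35 beside 210.3 to 267.9 in the others, and ENSMUST00000165966 of Ndrg1 held 4.74 FPKM in the same mouse. Ndrg3 held 12.8 FPKM in 24-month replicate 31, below the others.

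Assembled Ndrg2 transcripts made up most of the rest. MSTRG.11243.1 held 7.84 FPKM in 12-month replicate 19 and 9.63 in 24-month replicate 35. MSTRG.11243.5 held 1.13 FPKM in 12-month replicate 19 and 21.7 in 24-month replicate 31. MSTRG.11243.10 held 25.4 FPKM in 3-month replicate 6 and 1.86 in 12-month replicate 21, with all the others of those ages at 0. MSTRG.11243.2 and MSTRG.11243.12 were highest in 24-month replicate 32, at 9.79 and 9.24 FPKM. MSTRG.11243.3 held 13.4 FPKM in 12-month replicate 18, and MSTRG.11243.4 held 7.04 FPKM in 24-month replicate 35.

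Among Ndrg3 transcripts, MSTRG.21287.1 held 7.67 FPKM in 12-month replicate 17 and MSTRG.21287.2 held 16.8 FPKM in 3-month replicate 9. ENSMUST00000069600 held 5.19 FPKM in 24-month replicate 31, and ENSMUST00000072298 held 13.4 FPKM in 3-month replicate 7. Of the circular RNAs of Ndrg1, ciRNA299 was low in 24-month replicate 33 at 15.3 CPM. In 12-month replicate 18, ciRNA375 held 33.3 CPM and circRNA7664 held 318 CPM, both below the other 12-month mice.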

How the results depend on the processing

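The fall of the Ndrg1 sum from 3 to 24 months kept its direction and its call under every alternative run. Its log2 difference ran from −1.69 to −1.48 when each mouse was left out. The 4 Ndrg1 transcripts over Gm17035 differed by −1.69 and the 10 away from it by −1.19, with the exact permutation test alone. All 6 circular RNAs stayed called from 3 to 24 months. With adjusted p, 1, 0 and 0 Ndrg transcripts were called for 24 against 3, 12 against 3 and 24 against 12 months in place of 7, 5 and 1, and 1, 0 and 0 gene sums in place of 3, 1 and 1. The counts of 3 regulators, 4 hypoxia targets and 5 corticosteroid genes became 0. For 24 against 12 months 2 transcripts were called with a pseudocount of 0.1 and 0 with median-of-ratios scaling. For 12 against 3 months 2 gene sums were called with TPM, with median-of-ratios scaling and with all 15 mice in 1 fit, Ndrg3 being the one gained. Over all 15 mice, with no test, Spearman's rho of Gm17035 with Ndrg1 was 0.78 beside a Pearson's r of 0.27. The cause was not tested.

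The F test with a library covariate turned the sign of MSTRG.11243.4 (−0.49), ENSMUST00000004673 (0.19), MSTRG.11243.12 (−0.14), MSTRG.21287.4 (0.0034) and ENSMUST00000069600 (0.14). Ndrg3 from 12 to 24 months was 0.049 with TPM and 0.0013 with median-of-ratios scaling. None of these passed a test in either form.

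Leaving out each mouse in turn gave 3 to 7 called transcripts for 12 against 3 months, 0 to 2 for 24 against 12 months, 1 to 2 gene sums in both comparisons, and 2 to 4 hypoxia targets. The second gene sum came without 3-month replicate 7 or 12-month replicate 17 for 12 against 3 months and without 24-month replicate 32 for 24 against 12 months. Pearson's r of Gm17035 with Ndrg1 ranged from 0.22 to 0.72, and with ages centred from −0.20 to 0.48. Signs turned for features that were not called, with ranges of −0.11 to 0.15 for Ndrg4 from 3 to 24 months and −0.15 to 0.083 for Ndrg3 from 12 to 24 months. From 3 to 24 months the ranges were −0.015 to 0.84 for MSTRG.11243.1, −0.51 to 0.28 for MSTRG.11243.2, −0.031 to 0.89 for MSTRG.11243.4, −0.22 to 0.46 for MSTRG.11243.12 and −0.40 to 0.24 for ENSMUST00000004673. They were −0.43 to 0.092 for ENSMUST00000164675, −0.42 to 0.0066 for MSTRG.21287.4, −0.28 to 0.12 for ENSMUST00000069600, −0.40 to 0.37 for ENSMUST00000072298, −0.013 to 0.19 for Hif1a and −0.18 to 0.0098 for Mycn. No paired analysis was possible because no replicate number occurs at more than 1 age. Aligned bases were taken from coverage for Gm17035 and Ndrg1 alone. Gm17035 held 0.00017 Mb in 12-month replicate 18, beside 0.850 to 1.63 Mb in the other 12-month mice. Read depth is not given for single transcripts otherwise, so low ones carry an unknown counting error, and p-values measure only the spread between these mice.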
